A study of Homo sapiens with 6 samples.

Results

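The clustered core histone genes are the 63 protein-coding genes, of 61487 gene IDs in the deposited table, whose current symbols name a replication-dependent H2A, H2B, H3 or H4 gene. They were chosen by symbol and biotype, with no measured value. They comprise 17 H2A, 18 H2B, 13 H3 and 15 H4 genes, of which 49 lie at 6p22, 11 at 1q21, 2 at 1q42 and 1, H4C16, on chromosome 12. RNA was compared between 3 libraries of azacitidine-resistant K562 cells and 3 of the azacitidine-sensitive K562 cells from which they were derived. K562 is an established cell line from a human chronic myeloid leukaemia. Azacitidine, a cytidine analogue, enters DNA and RNA during synthesis and inactivates the DNA methyltransferases that act on it. The resistant cells came from months of exposure to rising doses of the drug, and the labels record no further treatment of either group at the time of RNA extraction. Both groups are therefore the same line grown in the same medium, and the resistant cells are described as one derived population. Each library is labelled a biological replicate, but no source says that the cultures were separate, and the p-values below reflect the spread among 3 libraries per group.

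Core histones form the protein octamer around which nuclear DNA is wrapped, with a pair each of H2A, H2B, H3 and H4. The clustered genes are made mainly in S phase, when new DNA has to be packaged, and their short, intronless transcripts end in a conserved stem-loop in place of a poly(A) tail. That stem-loop is bound by SLBP, and NPAT, at the histone locus bodies, drives transcription of the clusters. Many copies encode the same or nearly the same protein, so that a cell can draw on several genes for one histone.

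The libraries were made from total RNA after removal of ribosomal RNA, without poly(A) selection, as far as the kit named in the labels shows. Total counts ranged from 33007642 to 43006918. With 3 counts taken as the floor, a library with none could still hold 0.0698 to 0.0909 counts in each 1000000 of its unscaled total. Levels are given in CPM (counts in each 1000000 of the scaled total). The first principal component, with 66.3% of the variance, separated the groups, and the libraries numbered 3 stood apart on the second, with 18% of it. Summed over the 63 genes, the level was 9273, 13555 and 13482 CPM in resistant replicates 1, 2 and 3, against 10537, 10515 and 18010 CPM in sensitive replicates 1, 2 and 3. Sensitive replicate 3 thus held the highest core histone RNA of the 6 libraries. The labels call the cells myeloblasts. Of that list's defining genes, CTSG had no counts in any library, MPO, ELANE and CD34 were at most 0.120 CPM, and the 9-gene list summed to between 14.7 and 19.1 CPM in resistant cells, against 222 to 253 CPM in sensitive cells. The erythroid list of 10 genes summed to between 920 and 1555 CPM in resistant cells, against 726 to 1639 CPM in sensitive cells. TFRC was the largest part of that sum. It held 591, 657 and 954 CPM in resistant replicates 1, 2 and 3, against 325.5, 347 and 1200 CPM in sensitive replicates 1, 2 and 3.

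Of the 59 core histone genes that passed the count minimum, 14 were called higher in resistant cells and 1 lower. A gene was called at a Benjamini-Hochberg adjusted p below 0.05 in edgeR's quasi-likelihood test over all 20891 genes tested. The 14 are 23.7% of the members tested, beside 9.83% of all genes tested, and the 1 is 1.69%, beside 13.1% of all genes tested. The other 44 members tested were not called, and H2AC1, H3C4, H4C7 and H4C16 had too few counts for the test. The median log2 fold change was 0.02 over the 59 members and 0.03 over all genes tested, and with 1 library left out the members' median lay between −0.13, without sensitive replicate 2, and 0.36, without sensitive replicate 3. Every resistant library lay above every sensitive library for 13 of the 59, beside 18.7% of all genes tested, and below for 5, beside 21.4%. In whole-population RNA, fewer cells that make a transcript and less of it per cell cannot be told apart.

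The counts above are partly set by the filter, which asked for about 0.268 CPM in at least 3 libraries. Through the resistant libraries alone passed 8 members, H4C6, H3C11, H4C13, H3C3, H2BC1, H3C8, H2BC10 and H3C6. This route favours a higher call, though it does not force one, so these 8 add nothing to a comparison of shares. Of the 51 members past the count minimum in all 6 libraries, 6 were called higher (H2AC14, H2BC14, H2BC6, H2BC3, H3C12 and H3C1). That is 11.8%, close to the 9.29% of all genes past the minimum in every library, while the 1 called lower is 1.96%, beside 13.2%. Without both libraries numbered 3, 22 of 59 members were called higher and 4 lower. In that fit the calls over all genes tested rose as well, from 2054 to 4645 higher and from 2741 to 5021 lower. The 9.29% and 13.2% above are therefore not the background for these counts.

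In sensitive cells, 12 of the 14 genes were under 10 CPM, among them the 8 that passed through the resistant libraries alone. H3C1 and H3C12, at 47.3 and 47.5 CPM in sensitive cells, were between 10 and 100 CPM. By the mean over all 6 libraries, and among the 51 members past the count minimum in each, 1 of 9 under 10 CPM, 4 of 9 from 10 to 100 CPM and 1 of 33 at 100 CPM or more were called higher, beside the 9.29% of such genes. Whether these shares differ was not tested. Of the 33 members at 100 CPM or more in sensitive cells, edgeR called none higher, as did DESeq2 and limma-voom, and none had an unadjusted p below 0.05 in that direction. H2AC25, among them, was called lower. These levels are not corrected for transcript length. The calls at 100 CPM or more in sensitive cells depended on the libraries numbered 3. Without both, H2BC18, H3C13, H2AC4, H2BC7, H2BC12, H4C9, H2AC12 and H2AC16 were called higher. H2AC6, H4C5 and H2BC15 were then called lower as well, in a fit where calls over all genes rose too. H2BC18, H3C13, H2AC4 and H2AC16 were also called higher without sensitive replicate 3 alone.

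**Figure D1:**
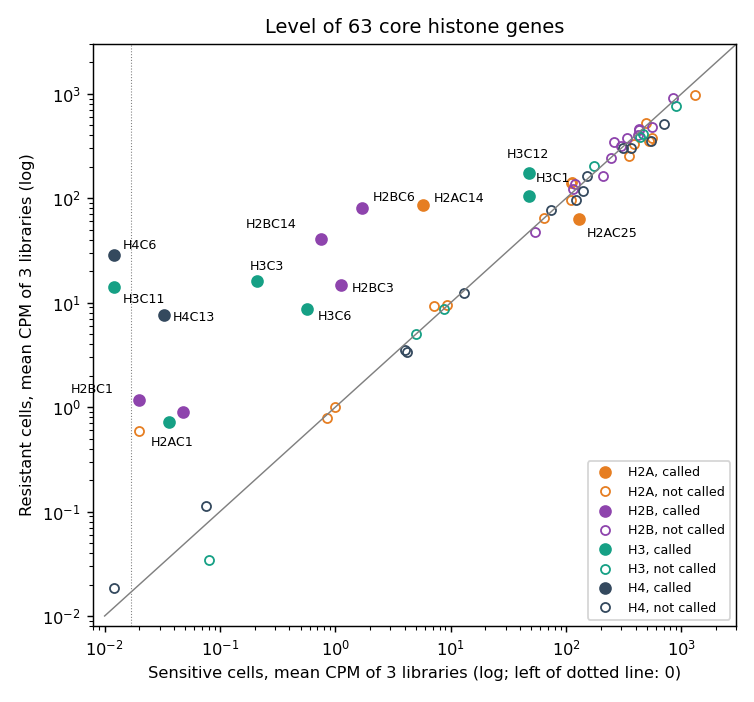
Mean CPM of each of the 63 core histone genes in resistant cells (vertical, log scale) against sensitive cells (horizontal, log scale), each over 3 libraries, coloured by histone type, with filled points for the genes called in edgeR's test. Apart from H2AC25, below the line of equal level, and H3C12 and H3C1, above it, points at 100 CPM or more in either group lie near the line. Of the 14 genes called higher, 12 lie above it at under 10 CPM in sensitive cells. Points left of the dotted line had 0 counts there.

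H2A packs with H2B as a dimer on the outside of the octamer, and most H2A and H2B genes of these clusters lie in head-to-head pairs with a shared stretch of DNA between their starts. Of 16 H2A genes tested, 1 was called higher, 1 lower and 14 neither. Each of these calls is 6.25%, beside 9.83% of all genes tested called higher and 13.1% lower. H2AC14, at 6p22 (chromosome 6, 27814302 to 27814777, minus strand), had 62.8, 94.2 and 101 CPM in the resistant libraries, against 3.76, 5.59 and 7.96 CPM in the sensitive libraries. The 3 resistant libraries all lay far above the sensitive ones. The log2 fold change was 3.90 ± 0.30 (SE, n = 3 per group), with an adjusted p of 1.73e-05 in edgeR's test. H2AC14 has a close relative in H2AC13, from which its coding sequence differs at 14 bases, an identity of 96.4%. H2AC13 averaged 330 ± 76.6 CPM in resistant cells and 385 ± 112 CPM in sensitive cells (SD, n = 3 each), and how reads that match both were counted is not stated.

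H2AC25, at 1q42 (chromosome 1, 228457364 to 228457873, minus strand), was the single member called lower. It had 39.0, 66.9 and 83.0 CPM in resistant cells, against 132, 118 and 141 CPM in sensitive cells, with no overlap between the groups. The log2 fold change was −1.05 ± 0.25 (SE, n = 3 per group; edgeR adjusted p = 0.0134). Without resistant replicate 2 the call was lost, with a log2 fold change of −1.09 and an adjusted p of 0.0591. Its head-to-head partner H2BC26, 229 bases away, averaged 47.2 ± 17.1 CPM in resistant cells and 53.7 ± 25.7 CPM in sensitive cells and was not called (adjusted p = 0.741).

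H2AC1, which encodes the testis form of H2A, had 68 counts in resistant cells (6, 22 and 40 in replicates 1, 2 and 3), against 2 counts in sensitive cells, both in replicate 2. The ratio was 33.3, with an exact 95% binomial interval from 8.86 to 280 that covers counting error only. It was not tested. Its partner H2BC1, the testis form of H2B (chromosome 6, 25726777 to 25727345, plus strand), had 0.664, 1.11 and 1.76 CPM in resistant cells, against 0, 0.0601 and 0 CPM in sensitive cells. That is 135 against 2 counts, a ratio of 66.0 (interval 17.9 to 551), and H2BC1 was called higher (edgeR adjusted p = 0.00158). For both genes the same single sensitive library, replicate 2, held the counts seen there.

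H2B had 5 of 18 tested genes called higher by edgeR, or 27.8%, beside 9.83% of all genes tested. None was called lower by edgeR, beside 13.1%, or by DESeq2 or limma-voom, with 1 lower at an unadjusted p below 0.05. Among the 16 past the count minimum in every library, 3 were called higher, beside 9.29% of all such genes. H2BC6 (chromosome 6, 26183761 to 26184230, plus strand) had 65.4, 97.3 and 78.6 CPM in resistant cells, against 1.59, 2.44 and 1.10 CPM in sensitive cells. H2BC14 (27815022 to 27815489, plus strand), the partner of H2AC14, had 35.8, 48.7 and 37.7 CPM in resistant cells, against 0.538, 1.05 and 0.670 CPM in sensitive cells. Both were low in every sensitive library and clearly present in every resistant one. Their log2 fold changes were 5.56 ± 0.30 for H2BC6 and 5.77 ± 0.28 for H2BC14 (SE, n = 3 per group; edgeR adjusted p = 2.52e-06 and 1.45e-06).

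H2BC3 (26043227 to 26043713, minus strand) had 9.99, 16.8 and 17.7 CPM in resistant cells, against 1.42, 1.02 and 0.938 CPM in sensitive cells. H2BC10 (26272931 to 26273412, plus strand) had 0.720, 1.06 and 0.892 CPM in resistant cells, against 0.0244, 0.120 and 0 CPM in sensitive cells. The groups did not overlap for either gene, but H2BC10 rests on 102 against 5 counts. The log2 fold changes were 3.71 ± 0.31 for H2BC3 and 4.19 ± 0.79 for H2BC10 (edgeR adjusted p = 2.86e-05 and 0.0044). Without sensitive replicate 2, which held 4 of the 5 sensitive counts, the value for H2BC10 was 5.79. For H2BC1, the fitted log2 fold change of 5.78 ± 0.91 became 8.50 without that library and 4.85 without both libraries numbered 3.

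The DNA between the genes of 3 such pairs is shown because the pairs differ in outcome: both genes called higher (H2AC14 and H2BC14), 1 called and its partner too low to test (H2AC1 and H2BC1), and neither called (H2BC8 and H2AC8). The sequences are from RefSeq (GRCh38.p14), plus strand, with no transcribed base of either gene, at chr6:27814778-27815021, chr6:25726563-25726776 and chr6:26216689-26216920. Capitals mark the TATA box spelled as TATAAA, the CCAAT box, which NF-Y binds, and the octamer ATTTGCAT, which POU2F1 binds, each on either strand.
H2AC14 and H2BC14: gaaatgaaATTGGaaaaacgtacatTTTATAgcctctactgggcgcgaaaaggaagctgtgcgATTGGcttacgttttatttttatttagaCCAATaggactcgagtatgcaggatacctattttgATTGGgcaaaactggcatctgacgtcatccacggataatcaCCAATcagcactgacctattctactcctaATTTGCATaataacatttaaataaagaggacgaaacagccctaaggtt
H2AC1 and H2BC1: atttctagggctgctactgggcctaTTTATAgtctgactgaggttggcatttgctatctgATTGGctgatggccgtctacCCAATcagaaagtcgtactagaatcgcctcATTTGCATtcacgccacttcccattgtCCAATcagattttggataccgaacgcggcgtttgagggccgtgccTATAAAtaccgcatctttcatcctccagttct
H2BC8 and H2AC8: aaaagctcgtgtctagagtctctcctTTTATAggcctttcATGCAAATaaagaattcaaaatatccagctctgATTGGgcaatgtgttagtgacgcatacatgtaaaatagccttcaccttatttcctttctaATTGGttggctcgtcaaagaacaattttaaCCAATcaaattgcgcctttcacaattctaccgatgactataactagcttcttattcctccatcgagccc
The 3 stretches are 244, 214 and 232 bases long and hold 5, 3 and 3 CCAAT boxes and 1 octamer each. They hold 1, 2 and 1 TATA boxes and 9, 10 and 6 CpG dinucleotides. H2BC8, in the third, averaged 465 ± 95.3 CPM in resistant cells and 431 ± 155 CPM in sensitive cells, and H2AC8 averaged 256 ± 57.1 CPM in resistant cells and 348 ± 170 CPM in sensitive cells.

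H3, which carries many of the regulatory histone marks on its tail, had 6 of 12 tested genes called higher, or 50%, beside 9.83% of all genes tested. All 6 lay at 6p22, where the H3 genes encode H3.1. Of these, H3C3, H3C6, H3C8 and H3C11 passed the filter through the resistant libraries alone, and 2 of the 8 H3 genes past the count minimum in every library were called higher, beside 9.29% of all such genes. H3C11 (chromosome 6, 27871845 to 27872346, minus strand) had 10.9, 17.1 and 14.5 CPM in resistant cells, against 0 counts in every sensitive library. Set against 3 counts over the sensitive group, it was at least 529-fold higher (edgeR adjusted p = 7.62e-06). H3C3 (26045384 to 26045869, plus strand) had 12.6, 18.5 and 17.1 CPM in resistant cells, against 0.196, 0.301 and 0.134 CPM in sensitive cells. Both transcripts were rare or absent in sensitive cells and present in every resistant library. The log2 fold change of H3C3 was 6.25 ± 0.34 (SE, n = 3 per group; edgeR adjusted p = 2.52e-06).

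H3C6 (26224178 to 26227473, plus strand) had 7.56, 9.20 and 9.49 CPM in resistant cells, against 0.562, 0.932 and 0.214 CPM in sensitive cells, a log2 fold change of 3.95 ± 0.43 (edgeR adjusted p = 0.000187). H3C8 (26270918 to 26271413, minus strand) had 0.637, 0.855 and 0.682 CPM in resistant cells, against 0.0489, 0.0601 and 0 CPM in sensitive cells. It rests on 83 against 4 counts and gave a log2 fold change of 4.21 ± 0.74 (edgeR adjusted p = 0.00288). The groups did not overlap for either gene.

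H3C12 and H3C1 were already well expressed in sensitive cells, and their calls were less stable. H3C12 (27890315 to 27890826, minus strand) had 143, 197 and 188 CPM in resistant cells, against 26.1, 20.6 and 95.7 CPM in sensitive cells. H3C1 (26020451 to 26020958, plus strand) had 77.2, 111 and 125 CPM in resistant cells, against 33.2, 30.6 and 78.1 CPM in sensitive cells. In both, sensitive replicate 3 was well above the other sensitive libraries, and for H3C1 it exceeded resistant replicate 1. The log2 fold changes were 1.89 ± 0.50 for H3C12 and 1.14 ± 0.34 for H3C1 (SE, n = 3 per group; edgeR adjusted p = 0.0219 and 0.0379).

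Leaving out single libraries moved both values. Without sensitive replicate 3, H3C12 stood at 2.91 and H3C1 at 1.70. H3C12 missed the threshold without resistant replicate 2, sensitive replicate 1 or sensitive replicate 2 (adjusted p = 0.0714, 0.0839 and 0.0591). H3C1 missed it without resistant replicate 2, resistant replicate 3, sensitive replicate 1 or sensitive replicate 2 (adjusted p = 0.12, 0.0676, 0.148 and 0.136). The difference kept its sign in each of these fits.

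**Figure D2:**
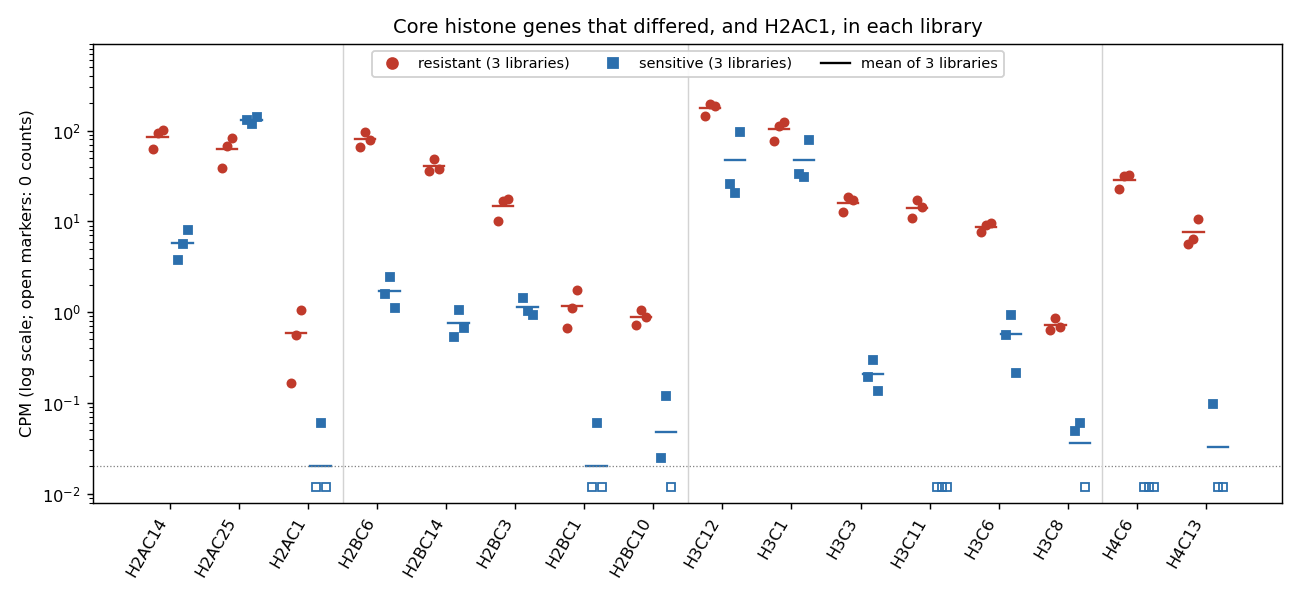
CPM (log scale) of the 15 called core histone genes and of H2AC1 in each library, grouped by histone type, with resistant libraries as circles left of sensitive libraries as squares, bars at the mean of 3 libraries and open markers for 0 counts. The groups overlap for H3C1 alone among the 15 called genes, and H2AC25 is the single gene with the resistant libraries below.

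H4, whose clustered genes almost all encode the same protein, had 2 of 13 tested genes called higher. That is 15.4%, beside 9.83% of all genes tested, and both passed the filter through the resistant libraries alone. H4C6 (chromosome 6, 26240393 to 26240793, plus strand) had 22.5, 31.5 and 32.1 CPM in resistant cells, against 0 counts in every sensitive library. It was at least 1072-fold higher when set against 3 counts over the sensitive group (edgeR adjusted p = 2.52e-06). H4C13 (27873148 to 27873534, minus strand) had 5.59, 6.41 and 10.7 CPM in resistant cells, against 0.0978, 0 and 0 CPM in sensitive cells, where it had 4 counts in all. Its log2 fold change was 7.61 ± 0.69 (edgeR adjusted p = 5.42e-05), and 11.1 without sensitive replicate 1, which held all 4 counts. It was 6.71 without both libraries numbered 3.

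The coding sequence of H4C6 differs from that of its closest member, H4C9, at 48 bases, an identity of 84.6%. The members with identical coding sequences are H4C14 and H4C15, H3C14 and H3C15, H2AC18 and H2AC19, and H4C11 and H4C12, and none of these 8 was called by edgeR, DESeq2 or limma-voom or had an unadjusted p below 0.05. For them, the split of reads between the copies is uncertain.

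H4C5 (26204610 to 26205021, plus strand) lay near the threshold on the other side. It had 288, 372 and 391.6 CPM in resistant cells, against 447, 514 and 672 CPM in sensitive cells. Every resistant library was below every sensitive one, with a log2 fold change of −0.63 ± 0.21 (SE, n = 3 per group) and an edgeR adjusted p of 0.0589. DESeq2 gave −0.62 with an adjusted p of 0.0245.

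The DNA before the start of 4 genes is shown to set an H4 and an H3 gene called higher beside a well-expressed gene of the same type that was not called: H4C6 beside H4C5, and H3C3 beside H3C10. Each is the 150 bases before the RefSeq start on the gene's own strand, here the plus strand, at chr6:26240243-26240392, chr6:26204460-26204609, chr6:26045234-26045383 and chr6:27809901-27810050 (GRCh38.p14). Capitals mark the same motifs.
H4C6: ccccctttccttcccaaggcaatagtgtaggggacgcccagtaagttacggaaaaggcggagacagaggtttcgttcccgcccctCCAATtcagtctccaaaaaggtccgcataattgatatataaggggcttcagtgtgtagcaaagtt
H4C5: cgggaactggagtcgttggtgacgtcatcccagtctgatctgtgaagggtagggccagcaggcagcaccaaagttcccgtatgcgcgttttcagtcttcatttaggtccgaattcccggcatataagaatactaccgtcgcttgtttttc
H3C3: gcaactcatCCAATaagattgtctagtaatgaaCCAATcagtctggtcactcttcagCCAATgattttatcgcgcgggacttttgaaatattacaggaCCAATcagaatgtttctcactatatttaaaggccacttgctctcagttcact
H3C10: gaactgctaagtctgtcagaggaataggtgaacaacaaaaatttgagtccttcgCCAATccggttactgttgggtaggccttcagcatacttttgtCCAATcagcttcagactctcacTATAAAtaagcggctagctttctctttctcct
H4C6 holds 1 CCAAT box and H4C5 none, while H3C3 holds 4 and H3C10 holds 2, with a TATA box. The windows hold 6 CpG dinucleotides in H4C6, 10 in H4C5, 3 in H3C3 and 3 in H3C10. H3C10 averaged 415 ± 113 CPM in resistant cells and 461 ± 183 CPM in sensitive cells.

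The same motifs were counted in the 250 bases before the start of the 58 members with a RefSeq promoter entry; H4C1, H4C3, H2AC12, H3C11 and H3C12 had none. CCAAT was present on either strand in 12 of 12 promoters of genes called higher, in 8 of 12 of the other members under 10 CPM in sensitive cells, and in 28 of 34 of the other members at 10 CPM or more. Of the 12 genes called higher, 7 passed the filter through the resistant libraries alone, so these counts describe the promoters and compare nothing. Over all 27305 RefSeq promoters CCAAT was present in 33%. TATAAA was found in 8 of 12, 8 of 12 and 23 of 34 of these promoters, beside 11.1% of all promoters. The octamer was found in 6 of 12, 4 of 12 and 16 of 34, beside 1.66%.

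CCAAT was in 3 of 13 H4 promoters, those of H4C6, H4C13 and H4C9. Every H2A, H2B and H3 promoter with an entry held it, so the count separates no genes of these types. The ratio of observed to expected CpG had a median of 0.628 (range 0.322 to 0.957) over the 12 promoters of genes called higher, 0.828 (0.532 to 1.34) over the other members under 10 CPM in sensitive cells, and 0.825 (0.235 to 1.12) over the other members at 10 CPM or more. The median over all promoters was 0.556. The ranges overlap, and the direction differed between histone types. For H3 the median was 0.741 over 4 promoters of genes called higher and 0.543 over 7 others. For H2A the value was 0.957 in 1 promoter of a gene called higher, beside a median of 0.835 over 15 others. H2B went the other way, at 0.607 over 5 promoters of genes called higher and 0.804 over 13 others. So did H4, at 0.556 over 2 promoters and 0.936 over 11 others. The promoter between H2AC14 and H2BC14 counts for both genes, so the 12 are not independent, and no test was made.

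Every gene called higher lay at 6p22, which holds 46 of the 59 members tested. There 14 of 46 were called higher, or 30.4%, beside 9.83% of all genes tested. Of these 14 members, 8 passed the filter through the resistant libraries alone. Among the 38 members of 6p22 past the count minimum in every library, 6 were called higher, or 15.8%, beside 9.29% of all such genes. At 1q42 edgeR called 1 of 2, H2AC25, lower, beside 13.1% of all genes tested. At 1q21 it called 0 of 11 in either direction, beside 9.83% of all genes tested called higher and 13.1% lower. DESeq2 and limma-voom also called 0 of these 11, and 1 of them, H2AC20, was lower at an unadjusted p below 0.05. Without both libraries numbered 3, the 1q21 genes H2BC18 and H3C13 were also called higher, with log2 fold changes of 0.90 and 0.80. The median log2 fold change was 0.08 over the 46 members at 6p22 and 0.00 over the 11 at 1q21. That the 6p22 and 1q21 genes differ in how often they were called was not tested.

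Along 6p22, called genes lay among uncalled ones. Among the 26 pairs of members within 2500 bases of each other with no member lying between them, over all clusters, 4 had both genes called higher. These were H2BC3 with H3C3 (1670 bases between the genes), H3C8 with H2BC10 (1517 bases), H2AC14 with H2BC14 (244 bases) and H3C11 with H4C13 (801 bases). In 3 more, 1 gene was called higher. H3C1 was called and H4C1, 690 bases further on the same strand, averaged 77.5 ± 15.4 CPM in resistant cells and 73.3 ± 24.2 CPM in sensitive cells. H3C12 was called and H2AC17, 1872 bases away, averaged 1.00 ± 0.41 CPM in resistant cells and 0.991 ± 0.060 CPM in sensitive cells.

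Of the 12 head-to-head pairs of an H2A and an H2B gene, with 193 to 247 bases between them, 1 had both genes called higher and 9 had neither called. The pair H2AC1 and H2BC1 had 1 called higher, and the pair H2AC25 and H2BC26 had 1 called lower. No called member overlapped another gene in GENCODE 29. Overlapping members, which were not called, were H4C15 with H2AC19 and H3C15, H2BC12 with H4C9, and H3C4 with H2AC7.

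**Figure D3:**
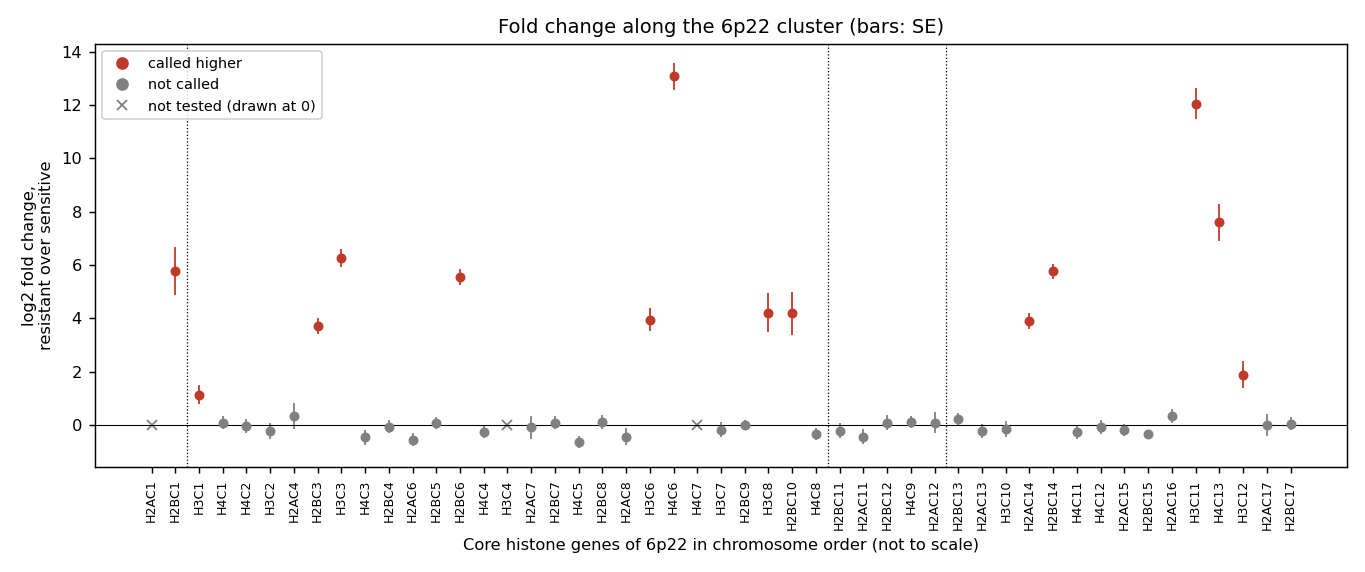
Fitted log2 fold change, resistant over sensitive, of the core histone genes of 6p22 in chromosome order (horizontal axis, not to scale), with SE bars, red points for genes called higher in edgeR's test, grey points for genes not called, and crosses for genes not tested; dotted lines mark gaps of over 100000 bases. The 14 called genes are spread among uncalled ones near 0, and the values of H4C6 and H3C11, at 0 counts in sensitive cells, depend on the fit's prior count.

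The genes called higher added little to the cells' total core histone RNA. The sum over all 63 averaged 12104 ± 2451 CPM in resistant cells and 13021 ± 4321 CPM in sensitive cells (SD, n = 3 each), a log2 ratio of −0.11, less than the spread between libraries. That ratio had no stable sign, at 0.20 without sensitive replicate 3, 0.06 without resistant replicate 1, 0.08 with library totals alone and −0.26 without sensitive replicate 2. The 14 genes made up 4.91%, 4.80% and 4.71% of that sum in the resistant libraries, against 0.641%, 0.597% and 1.03% in the sensitive libraries. These shares were fixed in direction by the choice of the 14 genes, and they give the size of the change in make-up. For H3, the genes called higher held 16.2%, 15.9% and 14% of the summed H3 level in resistant cells, against 3.92%, 3.29% and 5.58% in sensitive cells.

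By histone type, the summed level of H2A averaged 3425 ± 764 CPM in resistant cells and 4169 ± 1437 CPM in sensitive cells. That of H2B averaged 4596 ± 901 CPM in resistant cells and 4338 ± 1274 CPM in sensitive cells. H3 averaged 2103 ± 501 CPM in resistant cells and 2085 ± 899 CPM in sensitive cells, and H4 averaged 1980 ± 355 CPM in resistant cells and 2428 ± 717 CPM in sensitive cells. For each type, the difference between the means was smaller than the SD of the sensitive libraries. By cluster, the sums were 10583 ± 2109 CPM in resistant cells and 11401 ± 3840 CPM in sensitive cells at 6p22, and 1411 ± 323 CPM in resistant cells and 1435 ± 449 CPM in sensitive cells at 1q21. At 1q42 they were 110 ± 39.3 CPM in resistant cells and 184 ± 36.4 CPM in sensitive cells, a difference larger than either SD, led by H2AC25.

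**Figure D4:**
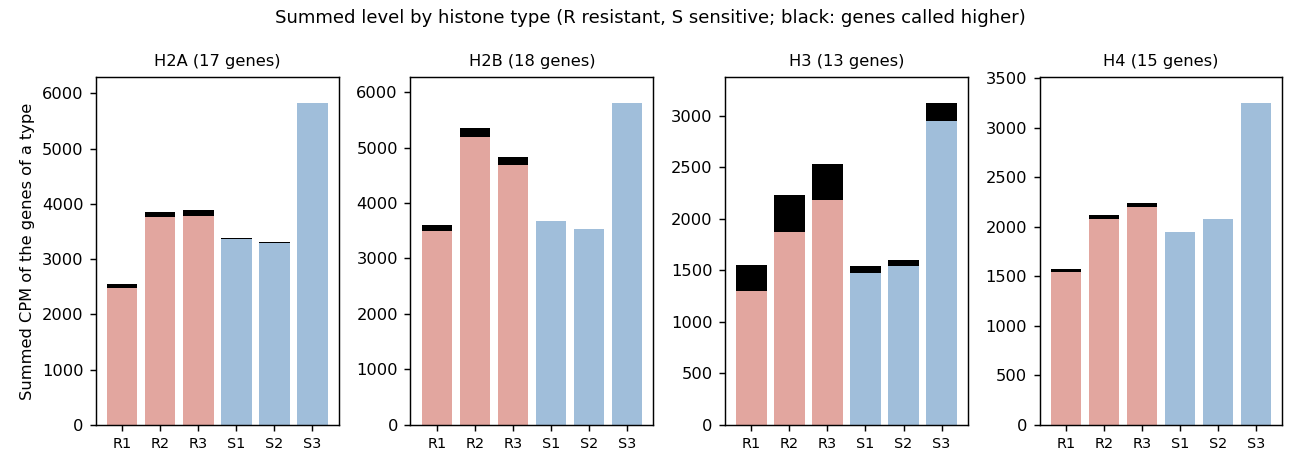
Summed CPM of the core histone genes of each type in each library (one panel per type, axes from 0 with their own scale), resistant libraries R1 to R3 left of sensitive libraries S1 to S3, with the part from the 14 genes called higher in black. The totals of the groups overlap in every panel, S3 is the highest bar of each, and the black part is largest in H3, at 14% to 16.2% of the resistant bars.

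The abundant genes carried most of the RNA and were mostly not called. Per kilobase of gene span, among members under 600 bases long, H2AC11 was highest in both groups, at 1961 CPM per kb in resistant cells and 2658 CPM per kb in sensitive cells. H3C2 followed in both, at 1488 CPM per kb in resistant cells and 1760 CPM per kb in sensitive cells. Among the called genes, H3C12 was highest in resistant cells, at 344 CPM per kb, against 92.7 CPM per kb in sensitive cells. H4C6 reached 71.6 CPM per kb in resistant cells, below the 1261 CPM per kb of H4C3, the highest H4 gene there.

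Of the uncalled H2A genes, H2AC11 averaged 967 ± 207 CPM in resistant cells and 1310 ± 410 CPM in sensitive cells. H2AC12 averaged 529 ± 118 CPM in resistant cells and 497 ± 331 CPM in sensitive cells. H2AC6 and H2AC20 were the uncalled H2A genes with each resistant library below each sensitive one. H2AC6 averaged 355 ± 82.0 CPM in resistant cells and 519 ± 103 CPM in sensitive cells, a log2 fold change of −0.55 ± 0.23 (edgeR adjusted p = 0.117). H2AC20 averaged 376 ± 90.3 CPM in resistant cells and 558 ± 114 CPM in sensitive cells, a log2 fold change of −0.57 ± 0.24 (adjusted p = 0.113). The other uncalled H2A genes at 10 CPM or more overlapped between groups. H2AC4 averaged 142 ± 50.9 CPM in resistant cells and 113 ± 91.8 CPM in sensitive cells, and without sensitive replicate 3 it was called higher, with a log2 fold change of 1.25. H2AC15 averaged 96.3 ± 24.4 CPM in resistant cells and 110 ± 22.2 CPM in sensitive cells, H2AC16 averaged 139 ± 25.7 CPM in resistant cells and 111 ± 44.6 CPM in sensitive cells, and H2AC21 averaged 65.0 ± 10.6 CPM in resistant cells and 65.0 ± 25.2 CPM in sensitive cells. The H2A genes H2AC7, H2AC17, H2AC18 and H2AC19 were under 10 CPM in both groups and not called.

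Uncalled H2B genes were led by H2BC12, at 904 ± 152 CPM in resistant cells and 853 ± 351 CPM in sensitive cells. H2BC11 averaged 479 ± 132 CPM in resistant cells and 557 ± 179 CPM in sensitive cells, and H2BC17 averaged 447 ± 94.5 CPM in resistant cells and 432 ± 121 CPM in sensitive cells. None of these separated the groups. H2BC4 averaged 405 ± 80.1 CPM in resistant cells and 422 ± 122 CPM in sensitive cells, H2BC21 averaged 379 ± 85.1 CPM in resistant cells and 339 ± 41.8 CPM in sensitive cells, and H2BC5 averaged 315 ± 76.0 CPM in resistant cells and 297 ± 56.3 CPM in sensitive cells. H2BC18 averaged 346 ± 80.3 CPM in resistant cells and 261 ± 142 CPM in sensitive cells, H2BC9 averaged 245 ± 41.9 CPM in resistant cells and 245 ± 44.1 CPM in sensitive cells, and H2BC7 averaged 122 ± 33.1 CPM in resistant cells and 115 ± 31.7 CPM in sensitive cells. H2BC13 averaged 138 ± 32.6 CPM in resistant cells and 119 ± 31.2 CPM in sensitive cells. H2BC15 was the uncalled H2B gene whose resistant libraries all lay below the sensitive ones, at 165 ± 18.5 CPM in resistant cells and 211 ± 10.1 CPM in sensitive cells (edgeR adjusted p = 0.137).

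The uncalled H3 genes at 10 CPM or more were H3C2, H3C7, H3C10 and H3C13. H3C2 averaged 760 ± 177 CPM in resistant cells and 899 ± 368 CPM in sensitive cells, and H3C7 averaged 389 ± 95.8 CPM in resistant cells and 441 ± 151 CPM in sensitive cells. H3C13, an H3.2 gene of 1q21, averaged 205 ± 58.0 CPM in resistant cells and 174 ± 120 CPM in sensitive cells. The groups overlapped for each of them. H3C14 and H3C15, at 1q21, were under 10 CPM in both groups, and H3C4 had 4 counts in resistant cells and 9 in sensitive cells.

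At 10 CPM or more, uncalled H4 genes ranged from H4C12, at 12.3 ± 3.0 CPM in resistant cells and 12.96 ± 3.6 CPM in sensitive cells, to H4C3, at 511 ± 117 CPM in resistant cells and 700 ± 252 CPM in sensitive cells. H4C2 averaged 302 ± 47.9 CPM in resistant cells and 310 ± 104 CPM in sensitive cells, and H4C4 averaged 306 ± 64.1 CPM in resistant cells and 365 ± 82.7 CPM in sensitive cells. H4C9 averaged 164 ± 22.7 CPM in resistant cells and 153 ± 46.0 CPM in sensitive cells, H4C11 averaged 117 ± 25.2 CPM in resistant cells and 140 ± 53.7 CPM in sensitive cells, and H4C8 averaged 97.0 ± 21.6 CPM in resistant cells and 122.5 ± 36.1 CPM in sensitive cells. The groups overlapped for each of these. H4C14 and H4C15 were under 10 CPM in both groups. H4C16, outside the clusters, had 2 counts in resistant cells and 0 in sensitive cells, and H4C7, which encodes a divergent H4, had 13 in resistant cells and 9 in sensitive cells.

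Of 55 tested factors of histone mRNA transcription, processing and decay and histone chaperones, 8 were called higher by edgeR, or 14.5%, beside 9.83% of all genes tested, and 3 lower, or 5.45%, beside 13.1%. Those 11 calls became 7 without resistant replicate 1, 3 without resistant replicate 2, and 5 without sensitive replicate 1 or sensitive replicate 2. Among the 54 past the count minimum in every library, 7 were called higher and 3 lower, beside 9.29% and 13.2% of all such genes. SLBP averaged 125 ± 40.9 CPM in resistant cells and 115 ± 14.1 CPM in sensitive cells (adjusted p = 0.747), NPAT averaged 93.7 ± 4.8 CPM in resistant cells and 93.2 ± 4.4 CPM in sensitive cells (adjusted p = 0.973), and CASP8AP2, a component of the histone locus body, averaged 169 ± 2.8 CPM in resistant cells and 136 ± 13.2 CPM in sensitive cells (adjusted p = 0.162). The 4 with the smallest adjusted p were SRRT, TENT4B, CABIN1 and HJURP. SRRT, which links capped transcripts to processing, averaged 117 ± 9.1 CPM in resistant cells and 66.3 ± 3.8 CPM in sensitive cells (log2 fold change 0.82 ± 0.14, adjusted p = 0.00284), and TENT4B, a poly(A) polymerase, averaged 18.6 ± 1.5 CPM in resistant cells and 9.64 ± 1.37 CPM in sensitive cells (0.95 ± 0.18, adjusted p = 0.00434). CABIN1, of the HIRA chaperone complex, averaged 159 ± 34.5 CPM in resistant cells and 82.4 ± 9.3 CPM in sensitive cells (0.95 ± 0.19, adjusted p = 0.00617). HJURP, the chaperone of the centromeric H3, averaged 73.9 ± 15.0 CPM in resistant cells and 133 ± 9.4 CPM in sensitive cells (log2 fold change −0.84 ± 0.18, adjusted p = 0.00697).

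Of 42 S phase genes tested, 1 was called higher by edgeR, or 2.38%, and 3 lower, or 7.14%, beside the same 9.83% and 13.1% of all genes tested. The list summed to 4581, 4897 and 6179 CPM in resistant replicates 1, 2 and 3, against 5510, 5389 and 6217 CPM in sensitive replicates 1, 2 and 3. UHRF1, which guides maintenance of DNA methylation, averaged 167 ± 16.9 CPM in resistant cells and 73.9 ± 10.3 CPM in sensitive cells (log2 fold change 1.17 ± 0.17, adjusted p = 0.00092). EXO1, POLD3 and CENPU were called lower, with log2 fold changes of −0.77, −0.55 and −0.67. The number of S phase genes called was 15 without resistant replicate 3 and 1 without any other single library. In both groups the library numbered 3 had the highest S phase sum, and in sensitive cells it also had the highest core histone sum. The part of cell cycle stage in the core histone differences was not tested.

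Linker histones bind DNA where it enters and leaves the octamer. Of 8 tested genes, 3 were called higher by edgeR, or 37.5%, beside 9.83% of all genes tested. None was called lower by edgeR, beside 13.1%, or by DESeq2 or limma-voom, and none was lower at an unadjusted p below 0.05. Among the 6 past the count minimum in every library, 1 was called higher, H1-6, beside 9.29% of all such genes. H1-6, the testis linker histone, had 18.6, 21.6 and 20.4 CPM in resistant cells, against 1.81, 3.40 and 2.68 CPM in sensitive cells (log2 fold change 2.95 ± 0.25, adjusted p = 3.52e-05). H1-1 was called higher too, with a log2 fold change of 5.27 ± 0.37. H1-1 and H1-6 lie within the 6p22 cluster. The linker genes H1-2, H1-3, H1-4 and H1-5 were not called.

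Of 11 tested replication-independent variants of the core histones, 3 were called higher by edgeR, or 27.3%, beside 9.83% of all genes tested. None was called lower by edgeR, beside 13.1%, with 1 lower at an unadjusted p below 0.05 and 1 lower by DESeq2. Among the 9 past the count minimum in every library, 2 were called higher, beside 9.29% of all such genes. These were H2AZ2 and MACROH2A1, while H3-4 passed through the resistant libraries alone. H2AZ2 averaged 300.0 ± 13.9 CPM in resistant cells and 186 ± 13.6 CPM in sensitive cells (log2 fold change 0.69 ± 0.16, adjusted p = 0.0107), and MACROH2A1 averaged 137 ± 1.0 CPM in resistant cells and 87.8 ± 10.7 CPM in sensitive cells (0.64 ± 0.15, adjusted p = 0.013). H3-4, the testis H3, averaged 0.617 ± 0.109 CPM in resistant cells and 0.190 ± 0.038 CPM in sensitive cells (1.68 ± 0.50, adjusted p = 0.0355). No variant was called by edgeR without resistant replicate 2, sensitive replicate 1 or sensitive replicate 2, and 6 were without resistant replicate 3.

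Of 15 tested non-histone protein-coding genes that lie between the first and the last core histone gene of 6p22, none was called higher by edgeR, DESeq2 or limma-voom, 1 was higher at an unadjusted p below 0.05, and 6 were called lower by edgeR, or 40%, beside 13.1% of all genes tested. Of these 6, SLC17A3 passed the filter through the sensitive libraries alone, a route that favours a lower call. Among the 14 neighbours past the count minimum in every library, 5 were called lower, beside 13.2% of all such genes. The 4 with the smallest adjusted p were TRIM38, BTN2A2, SLC17A3 and BTN3A2. TRIM38, a ubiquitin ligase gene, averaged 19.6 ± 1.4 CPM in resistant cells and 61.8 ± 1.3 CPM in sensitive cells (log2 fold change −1.66 ± 0.14, adjusted p = 3.53e-05), and the butyrophilin gene BTN2A2 averaged 18.2 ± 1.2 CPM in resistant cells and 48.5 ± 5.2 CPM in sensitive cells (−1.41 ± 0.16, adjusted p = 0.000178). SLC17A3, a phosphate and urate transporter gene, averaged 0.0702 ± 0.0302 CPM in resistant cells and 0.734 ± 0.128 CPM in sensitive cells (log2 fold change −3.33 ± 0.58, adjusted p = 0.00265), and BTN3A2 averaged 10.9 ± 0.3 CPM in resistant cells and 20.4 ± 3.3 CPM in sensitive cells (−0.90 ± 0.18, adjusted p = 0.00503). BTN3A1 and BTN3A3 were the other genes called lower. The count called higher was 1 with the replicate block, without resistant replicate 3 or without sensitive replicate 3, and 2 without both libraries numbered 3. That these neighbours and the core histone genes differ in direction was not tested.

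Markers of other cell types moved with the groups in part. Of 5 tested myeloblast and granulocyte markers, CD33, KIT and PRTN3 were called lower in resistant cells. Of the 3 tested stroma markers COL1A2 was called higher, at 5.51 ± 1.32 CPM in resistant cells and 0.324 ± 0.276 CPM in sensitive cells. COL1A1 went the other way, at 0.455 ± 0.277 CPM in resistant cells and 1.10 ± 0.74 CPM in sensitive cells. Neither COL1A1 nor DCN was called, and PDGFRA had too few counts for the test. The 4-gene list summed to 4.70 to 7.92 CPM in resistant cells, most of it COL1A2, against 0.953 to 2.92 CPM in sensitive cells. The lymphoid list summed to 8.25 to 9.33 CPM in resistant cells, against 5.98 to 8.04 CPM in sensitive cells, with MS4A1 at 0 counts in every library and CD3E called lower. None of the 9 tested erythroid markers was called by edgeR, with 3 higher and 1 lower at an unadjusted p below 0.05 and 2 higher by DESeq2. Their part in the core histone differences was not tested.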

How the data were processed

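The deposited table holds raw counts per Ensembl gene, which the authors made with HISAT2 2.2.1, Trimmomatic 0.39, featureCounts and Subread 2.0.3 on GRCh38, per the submitters' processing notes. Which annotation release was used, how strand was set and how reads that match several genes were treated is not stated in the labels or the file. Counts of near-identical and overlapping histone genes are therefore uncertain.

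Members were found by symbol and biotype. The members, the other gene lists and the tests were chosen with earlier results of these data known. All 6 libraries were fitted with edgeR 4.0.16 in R 4.3.3 (filterByExpr with a minimum of 10 counts, TMM factors, robust quasi-likelihood test, two-sided, no covariate). Benjamini-Hochberg adjustment was over all 20891 genes tested. CPM uses TMM-scaled totals. The SE is the log2 fold change divided by the square root of F. For a gene with 0 counts in a group, the fold was set against 3 counts over the group; intervals and floors cover counting error only. Every member called, or at 10 CPM or more in either group, is named, as are members at 0 counts in 1 group, the other lists' called genes with the smallest adjusted p, up to 4 a list, and SLBP, NPAT and CASP8AP2. H2AC1, members under 10 CPM and markers are also named for completeness. One gene that the rule names is not reported here. Genes and promoters are placed by RefSeq on GRCh38.p14.

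Alternatives were DESeq2-type size factors, upper quartile factors, library totals alone, no filter, at least 50 counts in 3 libraries, a replicate block, DESeq2 1.42.0, limma-voom (limma 3.58.1), length and GC offsets, an adjusted p below 0.01, and leaving out each library or both numbered 3. The fit was tested on simulated data.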

Additional observations from a re-analysis of the deposited data

How the results depend on the processing

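No alternative reversed a called member. With 1 library left out, the members' median log2 fold change, 0.02, lay between −0.13 and 0.36, and the log2 ratio of their summed level, −0.11, between −0.26 and 0.20; both changed sign. The 14 members called higher became 22 without both libraries numbered 3 and 12 to 19 with 1 library left out. The 1 called lower became 3 with no filter, 2 with at least 50 counts in 3 libraries, with DESeq2, limma-voom and length and GC offsets, 4 without both libraries numbered 3, 0 at an adjusted p below 0.01, and 0 to 2 with 1 library left out. Over all genes tested, 2054 higher and 2741 lower became 4645 and 5021 without both libraries numbered 3, 938 and 1586 at an adjusted p below 0.01, and 1051 to 3327 and 1677 to 3718 with 1 library left out. Library totals alone moved the median of all genes from 0.03 to 0.20, the members' median to 0.21, the log2 ratio of their summed level from −0.11 to 0.08 and the share of higher among all calls from 42.8% to 58.9%, with 3041 higher and 2118 lower, and 14 members higher and 1 lower.

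Calls in the other lists moved too. Histone factors and chaperones, 11 in all, became 17 with library totals alone, 26 without both libraries numbered 3, 4 at an adjusted p below 0.01 and 3 to 16 with 1 library left out. The 3 calls among histone variants became 7, 0 and 0 to 6 under the last 3 of these. Linker histones, 3, became 5 without both libraries numbered 3. S phase genes, 4, became 7 with no filter, 26 without both libraries numbered 3, 1 at an adjusted p below 0.01 and 1 to 15 with 1 library left out. The 6 non-histone neighbours called at 6p22, all lower, became 4 to 8 with 1 library left out, 8 with the replicate block and 9 without both libraries numbered 3. Their count called higher was 1 with the block and 2 without those libraries. The causes were not tested.

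Whether the replicate number pairs the samples is not settled. The deviations of same-numbered libraries correlated at 0.202, 0.085 and 0.299, the highest value for resistant replicates 2 and 3. Resistant replicate 1 correlated better with sensitive replicate 2, at 0.23. Over all genes tested, the replicate block gave 2859 called higher and 3582 lower, against 2054 and 2741 without it. With the replicate block, 6 members were called lower, and calls numbered 17 among histone factors, 6 among variants, 5 among linker histones and 10 among S phase genes. Depth left H2AC1, H3C4, H4C7 and H4C16 untested.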
